A study of Mus musculus with 35 samples.

Results

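The comparison described here is the response to the synthetic glucocorticoid dexamethasone (Dex) of macrophages that were already exposed to damage-associated molecular patterns (DAMPs) and came from mice labelled AMPKa1-/-. It rests on 6 of the 35 libraries of the study, chosen by their titles: 3 AMPKa1-/- libraries with DAMPs and Dex against 3 AMPKa1-/- libraries with DAMPs alone, and it was described over the 11176 of 47069 gene identifiers with a mean FPKM of at least 1 in those 6. FPKM counts fragments relative to gene length and library total, so it is a level per length. The cells were bone marrow-derived macrophages (BMDMs) of C57BL/6 mice, grown from marrow in medium conditioned by L929 cells, a fibroblast line that secretes the macrophage growth factor CSF1. Treatments lasted 24 h: vehicle (DMSO), Dex at 100 nM, LPS at 100 ng/ml, DAMPs at 1 µg/ml, LPS + Dex or DAMPs + Dex, with 3 AMPKa1-/- libraries for each of these 6, 18 in all. A WT arm of 17 libraries, given as the same strain, had the same treatments, and its 3 DAMPs and 3 DAMPs + Dex libraries are used below. The methods give mice of both sexes, 8 to 15 weeks old, for all experiments, but name neither AMPKa1-/- mice nor DAMPs. They state that replicates were cultures of individual mice, while the labels of these libraries give a number only. The labels give no age or sex for a library, and name neither the molecules in the DAMPs preparation nor how the AMPKa1 allele was made. The Y-linked gene Ddx3y was at least 13.7 FPKM in the AMPKa1-/- libraries and at least 13.6 FPKM in the WT libraries. Xist, the RNA of the inactive X in female cells, was at most 0.0283 and 0.0250 FPKM there. By these genes no library looked female. The p-values measure the spread between these samples.

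Sequencing depth was estimated from the smallest FPKM steps, each worth 1 fragment, at 18047431, 25816139 and 28722749 fragments in the DAMPs libraries and 24262390, 15837203 and 16981806 in the DAMPs + Dex libraries. For a gene 1 kb long that step was 0.0348 to 0.0631 FPKM, and values between whole steps occurred as well. Replicates correlated with each other at 0.975 to 0.990 (Pearson's r on log2(FPKM + 1) over genes), and none was a copy of another.

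AMPKa1, the product of Prkaa1, is the catalytic subunit of the energy sensor AMPK that predominates in macrophages, and its transcript did not mark the genotype. Prkaa1 stood at 10.7, 15.8 and 16.4 FPKM in the 3 DAMPs libraries and at 21.8, 20.0 and 24.0 FPKM in the 3 DAMPs + Dex libraries. Over all libraries its range was 9.05 to 24.0 FPKM (median 15.1, n = 18) with the AMPKa1-/- label and 8.59 to 26.1 FPKM (median 15.3, n = 17) with the WT label. A level summed over a gene cannot show whether a part of it is deleted, so it neither checks nor contradicts the labels. Other genes did separate the labels completely: Eno1b, an enolase gene copy, was at most 0.370 FPKM in the 18 AMPKa1-/- libraries and at least 34.6 FPKM in the 17 WT libraries. Klk1b22 was at most 0.0550 and at least 0.442 FPKM there, and Gm5801 was at 0 and at least 0.856 FPKM. These genes were picked for this after their values were seen. Whether the arms also differ in genetic background was not tested, and such a difference could not be told apart from the genotype.

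A few genes separated replicate 3 from the other AMPKa1-/- libraries, and 1 library went against its number there. Vcp-rs, a gene copy of the ATPase Vcp, stood at 0.415, 0.274 and 16.8 FPKM in DAMPs replicates 1, 2 and 3 and at 28.2, 0.236 and 18.9 FPKM in DAMPs + Dex replicates 1, 2 and 3, and in the other 4 AMPKa1-/- treatments it was high in replicate 3 only. Gm21188 showed the converse, at 0, 25.8 and 0 FPKM in the DAMPs + Dex libraries and 0 in replicate 3 of all treatments. Gm11868 was likewise at 0, 3.38 and 0 FPKM in the DAMPs + Dex libraries and at or near 0 in replicate 3 of all treatments. DAMPs + Dex replicate 1 therefore resembled replicate 3 of the other treatments at these 3 genes. It did not at MHC genes: in DAMPs + Dex replicates 1, 2 and 3 H2-Ea-ps was at 7.09, 15.1 and 0.0858 FPKM and H2-Q1 at 36.7, 95.3 and 0.155 FPKM, lowest in replicate 3. H2-Aa was at 26.1, 20.8 and 92.7 FPKM there, highest in replicate 3. In DAMPs replicate 3 the class II pseudogene H2-Ea-ps was at 434 FPKM, against 0 in vehicle, LPS and LPS + Dex replicate 3. These genes were chosen after their values were seen, and what set these libraries apart was not tested. Counts without DAMPs + Dex replicate 1 and DAMPs replicate 3 are given below as counts without the 2 doubted libraries.

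The labelled cell type was present by its markers. Lyz2, the lysozyme of myeloid cells, was the most abundant gene of all 6 libraries, at 35906, 24922 and 27974 FPKM with DAMPs and 28177, 28769 and 27198 FPKM with DAMPs + Dex, and these ranges overlapped. All 13 macrophage markers were expressed. Their summed level was 45227, 34228 and 37532 FPKM with DAMPs and 34585, 35671 and 33829 FPKM with DAMPs + Dex.

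Glucocorticoids enter the cell and bind the glucocorticoid receptor, encoded by Nr3c1, which then moves to the nucleus, raises genes with its own DNA elements and holds back inflammatory transcription by NF-kB, AP-1 and interferon regulatory factors. Classic genes raised by the receptor include Fkbp5, which limits the receptor's own hormone binding, Tsc22d3 (GILZ), a mediator of anti-inflammatory action, and Dusp1, a phosphatase of MAP kinases. DAMPs are released by damaged cells and are sensed by pattern recognition receptors on macrophages, which can trigger cytokine and type I interferon production. Interferon acts back on the cell through transcription factors that include IRF9 and raises a broad antiviral programme, the interferon-stimulated genes. AMPK has been described as a partner of glucocorticoid action in macrophages, which is the reason for asking how cells of these mice respond.

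Dex changed the DAMPs-treated AMPKa1-/- macrophages broadly and in both directions. Most tested genes of the glucocorticoid and acute-phase lists rose, and most tested interferon-stimulated, class II, class I and chemokine ligand genes fell. Scavenger and apoptotic cell receptors were split, 4 of 19 higher, Mertk and Cd163 among them, and 7 lower. The largest rise was that of Fkbp5, from 1.50 ± 0.306 to 402 ± 34.5 FPKM (mean ± SD, n = 3), and the largest log2 fall of a protein-coding gene that of Ifit3, an interferon-induced antiviral protein, from 57.7 ± 6.16 to 0.980 ± 0.472 FPKM. In limma's test on log2(FPKM + 1), 2859 of 11176 genes (25.6%) passed an adjusted p of 0.05 and are referred to as called, 1454 of them higher (13.0%) and 1405 lower (12.6%) with Dex. The 3 DAMPs + Dex libraries all lay above the 3 DAMPs libraries in 2486 genes (22.2%) and all below in 1849 (16.5%). Among the called genes 338 rose by a log2 fold change of at least 1 and 557 fell by as much, 3.02% and 4.98% of the genes tested, 76 (0.68%) and 140 (1.25%) changed by at least 2, and 11 (0.0984%) and 10 (0.0895%) by at least 4. The median over all genes tested was 0.08. Without the 2 doubted libraries 2035 genes were called, 1042 of them higher. Fold changes are on the log2(FPKM + 1) scale throughout, which understates changes of weakly expressed genes, and are given with their SE. Because these are bulk samples, fewer cells of a type and less RNA per cell cannot be told apart.

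**Figure D1:**
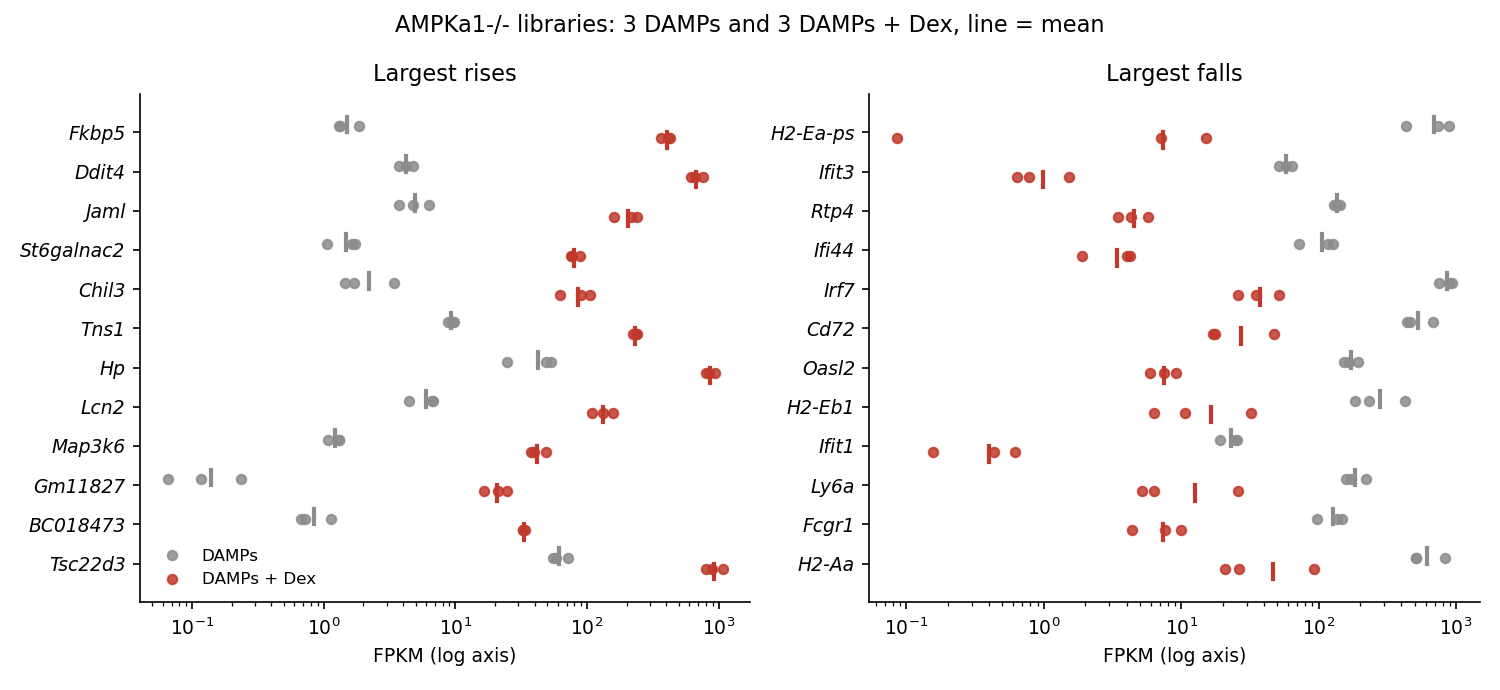
FPKM on a log axis of the 12 called genes with the largest log2 rise and the 12 with the largest log2 fall in AMPKa1-/- macrophages with DAMPs + Dex against DAMPs. Each point is 1 library (3 per group), and vertical lines are means; the groups do not overlap for any of the 24 genes, which the rule for choosing them required.

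The 12 largest rises were led by Fkbp5 and Ddit4. Fkbp5 stood at 1.85, 1.34 and 1.30 FPKM in the 3 DAMPs libraries and at 412, 364 and 431 FPKM in the 3 DAMPs + Dex libraries (log2 fold change ± SE 7.34 ± 0.14, adjusted p = 7.52e-12). Ddit4 (REDD1), an inhibitor of mTORC1 signalling, stood at 4.24, 3.70 and 4.77 FPKM and at 660.3, 616 and 758 FPKM (7.02 ± 0.17, adjusted p = 9.58e-11). The ratio of means was 269 for Fkbp5 and 160.0 for Ddit4, and within each group the 3 libraries differed far less than the groups did. Jaml, a junctional adhesion molecule of leukocytes, rose from 3.72, 4.78 and 6.26 to 214, 161 and 239 FPKM (5.12 ± 0.21, adjusted p = 8.51e-09). St6galnac2, a sialyltransferase, rose by 5.04, but its locus overlaps the antisense gene 1810032O08Rik, itself at a mean of 6.84 FPKM with DAMPs and 33.4 FPKM with DAMPs + Dex, and strand use in the counting is not given in the sources used here. Chil3 (Ym1), a chitinase-like protein of alternatively activated mouse macrophages, rose from 3.45, 1.46 and 1.71 to 90.4, 62.2 and 105 FPKM (4.78 ± 0.48, adjusted p = 1.25e-05). It has close paralogs between which reads can be split. Tns1, a focal adhesion protein, rose by 4.51, Map3k6, a stress-activated kinase, by 4.26, and the non-coding genes Gm11827 and BC018473, which have no known role used here, by 4.24 and 4.22.

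Among the 22 glucocorticoid-induced genes tested of 24 listed, 15 rose, 2 fell and 5 did not pass the test, with a median log2 fold change of 2.08 against 0.08 over all genes; the counts were 15 and 2 without the 2 doubted libraries as well. Tsc22d3 stood at 58.3, 55.4 and 71.6 FPKM with DAMPs and at 895, 800.1 and 1071 FPKM with DAMPs + Dex (3.88 ± 0.13, adjusted p = 2.00e-09). Dusp1 stood at 22.3, 33.4 and 24.0 FPKM and at 198, 254 and 298 FPKM (3.19 ± 0.18, adjusted p = 1.10e-07). For both genes every DAMPs + Dex library exceeded every DAMPs library several-fold. The transcription factors Zbtb16 (PLZF, 3.61), Hif3a (3.15), Klf4 (2.90) and Klf9 (2.82) rose, as did the clock gene Per1 (2.29), glutamine synthetase Glul (1.86), the metallothioneins Mt2 (1.66) and Mt1 (1.11), and Nfkbia, the inhibitor IkBa (0.75). Hif3a was at 0, 0.0328 and 0 FPKM with DAMPs and at 8.05, 9.10 and 6.94 FPKM with DAMPs + Dex, so that it was at or near 0 before Dex.

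A pair of members moved against the name of the list. Anxa1, the pro-resolving protein annexin A1, fell from 1247, 1718 and 1388 to 566, 721 and 489 FPKM (-1.30 ± 0.20, adjusted p = 4.54e-04). Rgs2, a regulator of G protein signalling, fell by 1.07 on the log2 scale. The groups did not overlap for Anxa1. Sgk1 (0.33), Errfi1 (0.34), Cebpd (0.14), Irs2 (-0.08) and Zfp36 (-0.10), which encodes the cytokine mRNA decay factor tristetraprolin, did not pass.

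The receptor itself did not pass the test. Nr3c1 stood at 23.8, 36.6 and 43.7 FPKM with DAMPs and at 39.4, 29.0 and 27.5 FPKM with DAMPs + Dex (-0.09 ± 0.19, adjusted p = 0.776), with overlapping groups. Of the 13 receptor and chaperone genes tested of 14, 3 rose and 2 fell: the coactivators Ncoa1 (1.40) and Ncoa2 (0.64) and the co-chaperone Dnajb1 (0.51) rose, and the chaperones Hsp90aa1 (-0.77) and Hsp90ab1 (-0.38) fell. Without the 2 doubted libraries 2 rose and none fell. The call of Ncoa2 was lost under the replicate block (adjusted p = 0.062) and without DAMPs replicate 1 or 2 or DAMPs + Dex replicate 1 or 3, and that of Hsp90aa1 without DAMPs replicate 2 or 3 or DAMPs + Dex replicate 3.

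Among 10 AMPK subunits and upstream kinases tested of 12, 3 rose, 1 fell and 6 did not pass, with a median of 0.11; without the 2 doubted libraries 2 rose and none fell. The regulatory subunit Prkag2 stood at 20.2, 24.2 and 25.5 FPKM with DAMPs and at 46.2, 38.5 and 41.0 FPKM with DAMPs + Dex (0.82 ± 0.13, adjusted p = 6.08e-04), without overlap. The subunits Prkaa1 (0.60 ± 0.17, adjusted p = 0.0235) and Prkab1 (0.50) rose less, and Camkk2, an upstream kinase that responds to calcium, fell by 0.56. The call of Prkaa1 was lost without DAMPs replicate 1 and without DAMPs + Dex replicate 1 or 3, and those of Prkab1 and Camkk2 without the 2 doubted libraries (adjusted p = 0.071 and 0.057). Stk11 (LKB1), the main upstream kinase, was at 111, 109.8 and 99.3 FPKM with DAMPs and at 99.3, 114 and 127 FPKM with DAMPs + Dex and did not pass. The other catalytic subunit, Prkaa2, was at most 0.130 FPKM in all 18 AMPKa1-/- libraries.

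**Figure D2:**
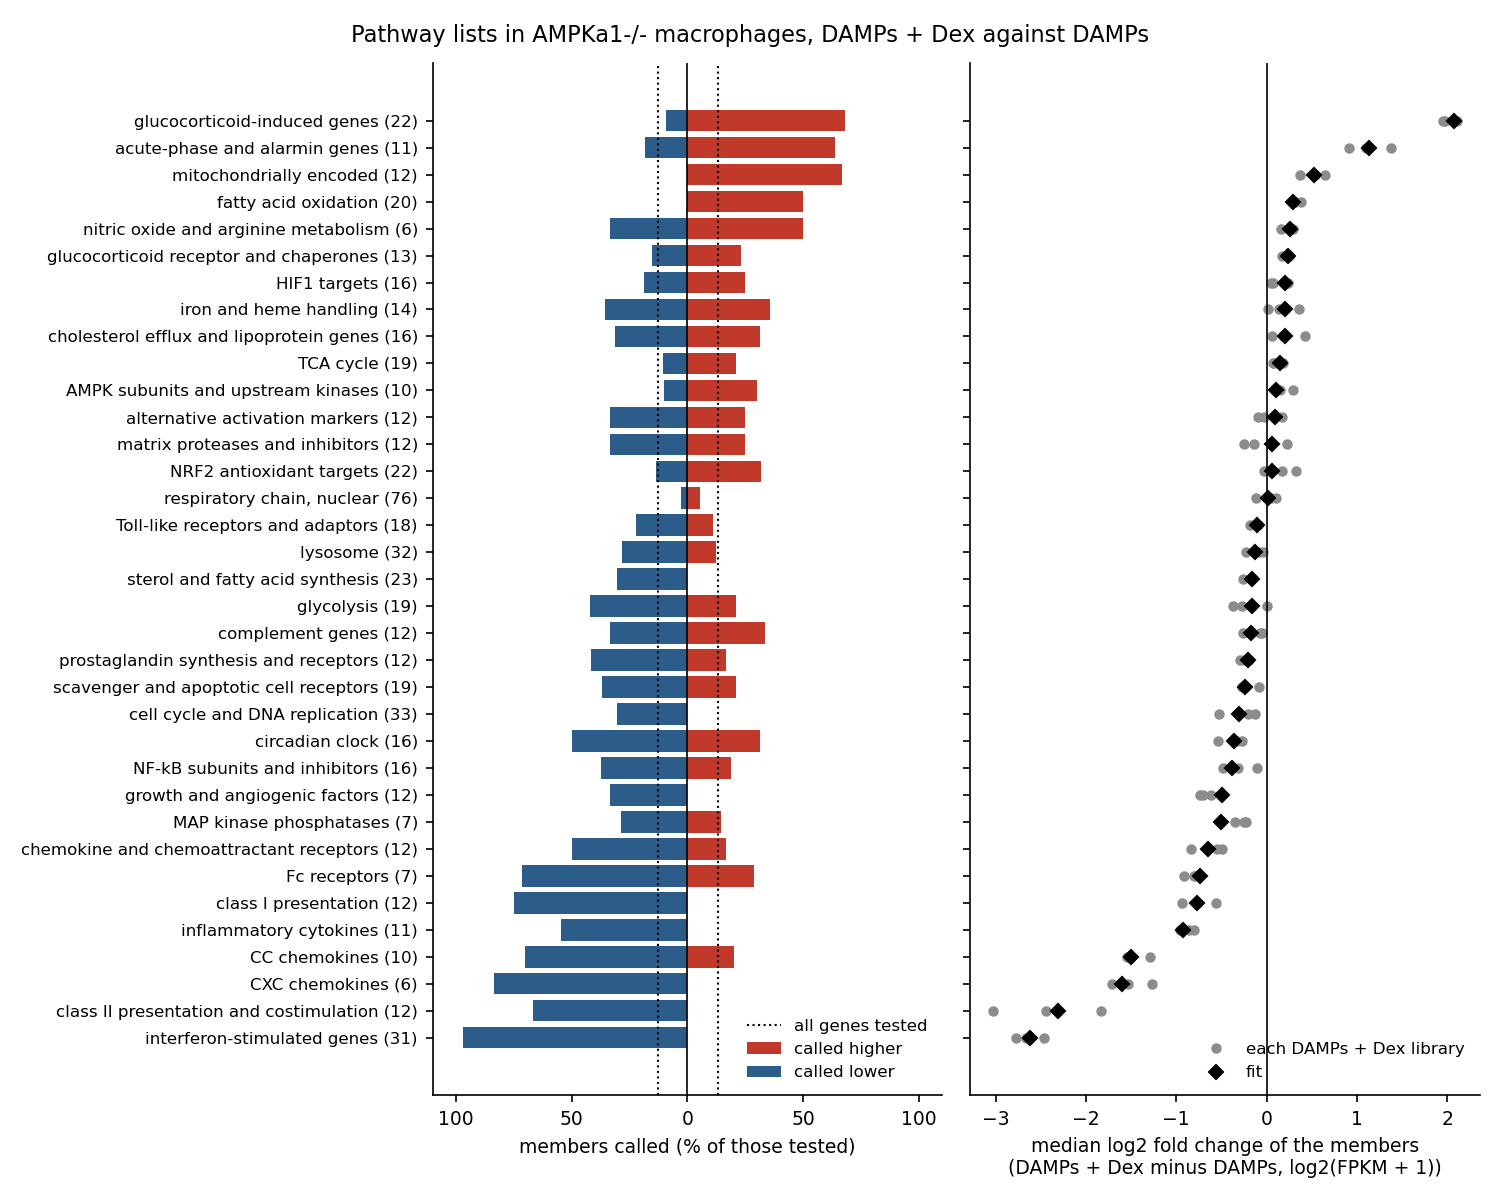
Left, share of the tested members of each pathway list (number in brackets) that were called higher (red, to the right) or lower (blue, to the left) in AMPKa1-/- macrophages with DAMPs + Dex against DAMPs, with dotted lines at the shares over all genes tested (13.0% and 12.6%). Right, the list's median log2 fold change from the fit (diamonds) and in each of the 3 DAMPs + Dex libraries against the DAMPs mean (grey points); glucocorticoid-induced genes are at the top and interferon-stimulated genes at the bottom.

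Interferon-stimulated genes were the list with the lowest median. All 31 were tested, 30 fell, none rose, and the GTPase gene Gbp7 (-0.26) did not pass; the median log2 fold change was -2.62, and 29 fell without the 2 doubted libraries. DAMPs alone had raised the programme: against vehicle, 505 of 11207 genes (4.51%) were called, 2.1% higher and 2.41% lower, and 30 of the 31 interferon-stimulated genes were among those that rose, with a median of 1.89. That comparison shares the DAMPs libraries with the comparison by Dex, so the values are given side by side and no overlap is read from them. Without vehicle replicate 2 it called 313 genes and without DAMPs replicate 3 it called 305.

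The summed level of the 31 genes showed the course over the treatments. It was 850.2, 747 and 404 FPKM in the vehicle libraries, 473, 514 and 354 with Dex alone, 3045, 3564 and 3504 with DAMPs and 418, 491 and 382 with DAMPs + Dex. With DAMPs + Dex the sums thus lay in the range seen with Dex alone and far under every DAMPs library. Replicate 3 was the lowest in each of the vehicle, Dex and DAMPs + Dex groups.

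Antiviral effectors were among the members that fell. Ifit3 stood at 51.5, 63.9 and 57.7 FPKM with DAMPs and at 0.779, 1.52 and 0.641 FPKM with DAMPs + Dex (-4.91 ± 0.41, adjusted p = 3.34e-06). Ifit1, which binds foreign 5′ ends of RNA, stood at 19.3, 25.3 and 24.7 FPKM and at 0.435, 0.618 and 0.155 FPKM (-4.11 ± 0.32, adjusted p = 1.80e-06). Rtp4, Ifi44 and Oasl2 fell by 4.65, 4.61 and 4.34 on the log2 scale. The groups did not overlap for any of these 5 genes, which the rule for choosing the largest falls required. The GTPases Mx1 (-2.97) and Mx2 (-2.88), the ubiquitin-like modifier Isg15 (-2.93), its protease Usp18 (-3.09) and the radical enzyme viperin, Rsad2 (-2.52), fell as well. Bst2 (tetherin), which holds budding virus on the cell surface and was the most abundant member, fell from 1083, 1075 and 1127 to 182, 227 and 187 FPKM (-2.47 ± 0.21, adjusted p = 3.57e-06).

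Among the sensors and regulators Irf7 fell furthest. Irf7, the factor that amplifies type I interferon production, stood at 752, 933 and 891 FPKM with DAMPs and at 35.2, 51.8 and 25.7 FPKM with DAMPs + Dex (-4.53 ± 0.46, adjusted p = 1.39e-05); its locus overlaps the antisense gene Phrf1, whose mean was 21.4 FPKM with DAMPs and 21.04 FPKM with DAMPs + Dex. The nucleic acid sensor Zbp1 stood at 22.5, 28.4 and 29.1 FPKM and at 3.62, 3.83 and 3.02 FPKM (-2.62 ± 0.20, adjusted p = 1.70e-06). Among the interferon signal transducers Irf9 changed by -1.28 and Stat2 by -1.19, and the RNA helicases Dhx58, Ddx58 and Ifih1 by -2.28, -1.77 and -0.82. All of these passed.

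Promoters of 3 of these genes are shown because they hold a sequence pattern that a minority of the list held. The pattern of GAAA and GAAACT with 2 free bases between them, the core of the interferon-stimulated response element, was searched on both strands in the 300 bases around RefSeq starts (250 before, 50 after, GRCm38.p6); it was added after the fold changes were seen. It was present for 8 of the 23 interferon-stimulated genes with a promoter in the table (34.8%), for 9 of 101 called genes with a log2 fold change of at most -2 (8.91%), for 40 of 8516 genes tested (0.470%) and for 82 of 27025 genes in all (0.303%). The NF-kB pattern, GGGA and TTCC with 2 free bases between them, searched alongside, was present in 1.63% of all genes and in 3 of the 23. A match describes letters only, binding was not measured, and no matches of different patterns overlapped in the promoters shown. The matches are in capitals, each sequence is on the strand of its gene, and the genes' strands are plus, plus and minus: Ifit3 at chr19:34583279-34583578, with 1 match starting 158 bases before the start, Ifit1 at chr19:34640639-34640938, with matches starting 106 and 87 bases before the start, and Bst2 at chr8:71537423-71537722, with 1 match starting 130 bases before the start.
Ifit3: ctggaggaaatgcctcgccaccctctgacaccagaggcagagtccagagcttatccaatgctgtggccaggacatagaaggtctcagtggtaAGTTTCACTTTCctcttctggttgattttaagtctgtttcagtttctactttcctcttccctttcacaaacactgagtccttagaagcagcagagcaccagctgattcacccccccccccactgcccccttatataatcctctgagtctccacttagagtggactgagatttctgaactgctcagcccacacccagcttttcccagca
Ifit1: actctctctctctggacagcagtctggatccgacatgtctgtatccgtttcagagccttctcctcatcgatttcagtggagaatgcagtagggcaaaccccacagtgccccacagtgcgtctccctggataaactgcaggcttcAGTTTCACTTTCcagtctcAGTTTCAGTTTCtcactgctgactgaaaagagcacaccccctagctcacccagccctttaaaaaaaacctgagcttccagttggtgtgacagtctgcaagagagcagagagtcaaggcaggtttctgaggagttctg
Bst2: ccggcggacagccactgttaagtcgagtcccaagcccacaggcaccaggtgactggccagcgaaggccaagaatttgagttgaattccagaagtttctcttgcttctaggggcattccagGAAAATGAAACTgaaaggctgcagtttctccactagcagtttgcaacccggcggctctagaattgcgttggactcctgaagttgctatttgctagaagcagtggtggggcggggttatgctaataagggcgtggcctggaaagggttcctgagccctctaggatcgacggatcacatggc

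The same search with the glucocorticoid response element pattern, GNACA and TGTNC with 3 free bases between them and N for any base, found 1 match among the 58 called genes with a log2 fold change of at least 2 and a promoter in the table (1.72%), in Map3k6 at chr4:133240568-133240867 on the plus strand, 181 bases before the start; the pattern was in 25 of the 8516 genes tested (0.294%) and in 0.537% of all genes. Map3k6 stood at 1.07, 1.31 and 1.30 FPKM with DAMPs and at 37.5, 39.6 and 48.7 FPKM with DAMPs + Dex (4.26 ± 0.15, adjusted p = 2.36e-09). Its promoter is shown with the match in capitals. That the others lack it says only that these letters are not in this window.
Map3k6: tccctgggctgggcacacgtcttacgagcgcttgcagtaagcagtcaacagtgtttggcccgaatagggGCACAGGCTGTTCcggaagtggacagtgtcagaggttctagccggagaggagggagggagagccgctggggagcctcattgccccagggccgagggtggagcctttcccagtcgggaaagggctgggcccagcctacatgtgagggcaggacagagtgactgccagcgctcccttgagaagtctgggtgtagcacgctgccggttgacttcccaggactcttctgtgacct

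**Figure D3:**
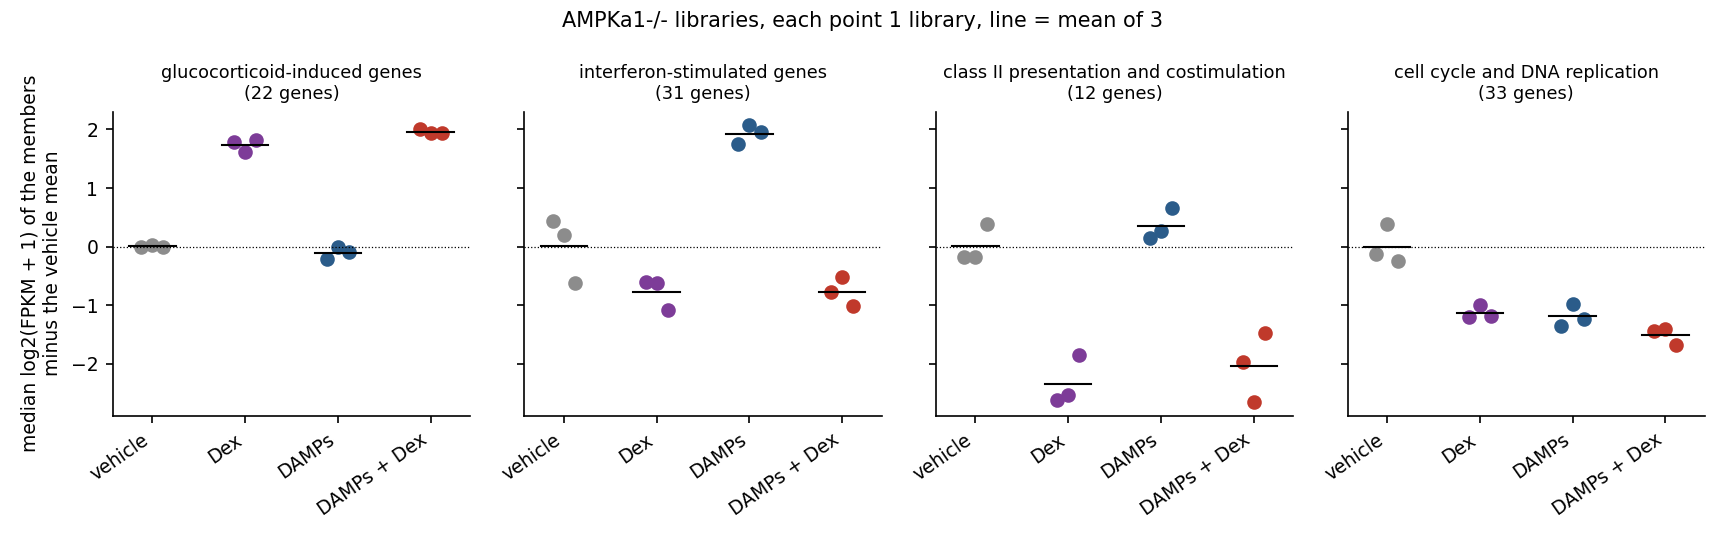
Median log2(FPKM + 1) of the tested members of 4 lists in each AMPKa1-/- library, minus the mean of the 3 vehicle libraries, for vehicle, Dex, DAMPs and DAMPs + Dex (3 points per treatment, line at the mean). Glucocorticoid-induced genes were high and class II genes low with Dex, with or without DAMPs, interferon-stimulated genes were high with DAMPs only, and cell cycle genes were lower in all 3 treated groups than in vehicle.

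Class II presentation fell alongside. Of 15 listed genes 12 were tested, 8 fell, none rose and 4 did not pass, with a median of -2.31; 7 fell without the 2 doubted libraries. Ciita, the master regulator of class II transcription, stood at 11.4, 18.1 and 20.7 FPKM with DAMPs and at 0.141, 0.216 and 0.347 FPKM with DAMPs + Dex (-3.81 ± 0.20, adjusted p = 8.25e-08). Its target Cd74, the invariant chain, stood at 1816, 1626 and 1242 FPKM and at 102, 149 and 379 FPKM (-3.09 ± 0.50, adjusted p = 6.39e-04). In each gene the groups lay well apart, while DAMPs + Dex replicate 3 was the highest of its group. H2-Aa (-3.98) and H2-Eb1 (-4.22), the alpha and beta chains, and the peptide exchange factor H2-DMa (-2.72) fell, H2-Ab1 at -3.84 did not pass (adjusted p = 0.0523), and the checkpoint ligand Cd274 (PD-L1) fell by 1.89. H2-Ea-ps, a pseudogene that is expressed in some haplotypes only, fell from 742, 880.4 and 434 to 7.09, 15.1 and 0.0858 FPKM (-6.98 ± 1.87, adjusted p = 0.0155), and its call was lost without DAMPs replicate 2, without DAMPs + Dex replicate 3 and without the 2 doubted libraries. H2 genes share reads with close copies and differ between haplotypes, so their values are uncertain.

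Class I presentation fell by less. All 12 genes were tested and 9 fell, with a median of -0.77, and 8 fell without the 2 doubted libraries. B2m, the light chain, stood at 4911, 4906 and 5336 FPKM with DAMPs and at 2589, 3029 and 2271 FPKM with DAMPs + Dex (-0.95 ± 0.17, adjusted p = 0.0013). The class I activator Nlrc5 (-1.12), the immunoproteasome subunits Psmb8 (-1.29), Psmb9 (-0.87) and Psmb10 (-0.67) and the peptide transporters Tap1 (-0.58) and Tap2 (-0.59) fell, whereas the heavy chains H2-K1 and H2-D1 and the trimming protease Erap1 did not pass.

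All 7 Fc receptor genes were called, 2 higher and 5 lower (1 and 4 without the 2 doubted libraries). Fcgr1, the high-affinity receptor for IgG, stood at 97.8, 137 and 148 FPKM with DAMPs and at 7.67, 9.98 and 4.39 FPKM with DAMPs + Dex (-3.98 ± 0.32, adjusted p = 2.39e-06). The activating receptor Fcgr4 (-1.28), the inhibitory receptor Fcgr2b (-0.74) and the shared signalling chain Fcer1g (-0.72) fell, and Fcgrt, the neonatal receptor that recycles IgG, rose from 94.8, 80.9 and 76.4 to 189, 224 and 208 FPKM (1.29 ± 0.14). Cd72, a C-type lectin co-receptor, was among the 12 largest falls, from 465, 674 and 443 to 16.9, 46.9 and 17.7 FPKM (-4.36 ± 0.37); it overlaps the antisense gene Tesk1, with a mean of 18.7 FPKM with DAMPs and 13.7 FPKM with DAMPs + Dex.

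Of 19 inflammatory cytokines listed, 8 did not reach a mean of 1 FPKM, among them Il6 at 0.217, 0.0911 and 0.0819 FPKM with DAMPs. Of the 11 tested, 6 fell and none rose (median -0.93), also without the 2 doubted libraries. The most abundant, Tgfb1, stood at 385, 332 and 237 FPKM with DAMPs and at 175, 226 and 251 FPKM with DAMPs + Dex and did not pass (-0.53 ± 0.22, adjusted p = 0.0905). Tnf stood at 7.82, 7.99 and 7.32 FPKM with DAMPs and at 0.159, 0.204 and 0.152 FPKM with DAMPs + Dex (-2.89 ± 0.15, adjusted p = 5.59e-08). Il1b was uneven with DAMPs, at 8.02, 7.77 and 34.6 FPKM, and stood at 0.357, 0.0781 and 1.09 FPKM with DAMPs + Dex (-3.28 ± 0.56, adjusted p = 8.98e-04). The 6 members that fell included anti-inflammatory ones: Il1rn, the interleukin-1 receptor antagonist, fell from 20.6, 33.7 and 26.3 to 1.34, 2.48 and 1.54 FPKM (-3.32 ± 0.22), and Il10 fell by 1.38.

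Most tested chemokine ligands fell, as did a part of their receptors. Of 10 CC chemokines tested, 7 fell and 2 rose (median -1.50), 6 and 2 without the 2 doubted libraries. Ccl4, an attractant of monocytes and T cells, stood at 10.9, 13.0 and 8.18 FPKM with DAMPs and at 0.624, 1.05 and 0.268 FPKM with DAMPs + Dex (-2.83 ± 0.35, adjusted p = 6.98e-05), and Ccl3 (-2.39), Ccl5 (-2.04) and the monocyte attractant Ccl2 (-1.93) fell too. Ccl6 (0.68) and Ccl9 (0.61), expressed constitutively by macrophages, rose. Of 6 CXC chemokines tested of 13, 5 fell (median -1.60; 4 without the 2 doubted libraries), among them Cxcl10, an interferon-induced attractant of T cells, at 2.60, 2.10 and 2.08 FPKM with DAMPs and 0.0657, 0 and 0.188 FPKM with DAMPs + Dex (-1.59 ± 0.25). Of 12 receptor genes tested 6 fell and 2 rose, 4 and 1 without the 2 doubted libraries. Ccr2, the receptor of Ccl2, fell by 3.09 on the log2 scale and Cx3cr1 fell by 2.54, although the Cx3cr1 locus overlaps other expressed genes. Cmklr1, the chemerin receptor, rose by 0.92, and the chemokine receptor Cxcr4 by 0.32.

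Toll-like receptor genes were called in a share not far from that of all genes. Among 18 Toll-like receptors and adaptors tested 2 rose and 4 fell (median -0.11; 2 and 2 without the 2 doubted libraries), beside 13.0% of all genes higher and 12.6% lower. Tlr1, which pairs with TLR2 on lipopeptides, fell from 21.6, 25.6 and 26.9 to 3.04, 3.77 and 3.26 FPKM (-2.56 ± 0.13), and the DNA sensor Tlr9 (-1.16, not past the threshold without the 2 doubted libraries) and the co-receptor Cd14 (-0.96) fell, while the RNA sensor Tlr7 rose by 1.00. Among 16 NF-kB genes 3 rose and 6 fell (median -0.38; 2 and 5 without the 2 doubted libraries), with the inhibitors split: Nfkbia and Tnfaip3 (A20, 0.70) rose, and Tnip3 (-2.72), Nfkbiz (-1.71) and Nfkbie (-1.32) fell. Of 7 MAP kinase phosphatases tested Dusp1 rose and Dusp4 (-1.48) and Dusp6 (-1.18) fell.

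The acute-phase list rose. Of 11 genes tested of 16, 7 rose and 2 fell (median 1.13), 6 and 1 without the 2 doubted libraries. Saa3, the serum amyloid A of macrophages, had the largest gain in mean FPKM of all genes named, from 687, 502 and 889 FPKM with DAMPs to 8164, 6586 and 9870.0 FPKM with DAMPs + Dex (3.58 ± 0.42, adjusted p = 4.48e-05). Hp, haptoglobin, which binds free haemoglobin, stood at 52.9, 24.8 and 49.0 FPKM and at 848, 945 and 803 FPKM (4.39 ± 0.34, adjusted p = 1.61e-06). Lcn2, which withholds iron from bacteria by binding their siderophores, stood at 6.64, 4.43 and 6.73 FPKM and at 109.7, 132 and 157 FPKM (4.27 ± 0.35). In all 3 genes every DAMPs + Dex library lay above every DAMPs library, which the rules for choosing the largest rises and gains required. With Dex alone Saa3 was at 1029, 1149 and 727 FPKM and with vehicle at 241, 92.8 and 54.0 FPKM, and the test of the difference between the Dex effects with and without DAMPs did not pass for it (0.44 ± 0.59, adjusted p = 0.709). The alarmin subunits S100a8 and S100a9 did not pass, and the protease inhibitor Slpi fell by 2.56.

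Receptors for uptake of dead cells and haemoglobin changed in opposite directions. Of 19 scavenger and apoptotic cell receptors tested 4 rose and 7 fell (median -0.24; 3 and 4 without the 2 doubted libraries). Mertk, the receptor tyrosine kinase of steady-state efferocytosis, stood at 24.8, 24.9 and 36.8 FPKM with DAMPs and at 181, 130.2 and 159 FPKM with DAMPs + Dex (2.41 ± 0.20, adjusted p = 2.39e-06). Axl, its relative that is linked to inflammation, went the other way, from 50.7, 74.6 and 96.5 to 21.1, 14.2 and 14.7 FPKM (-2.06 ± 0.21, adjusted p = 1.80e-05). Cd163, the receptor for haptoglobin-haemoglobin complexes, rose by 2.52 and Stab1 by 1.01, and Cd36 (-1.74), Msr1 (-0.75) and the bridging ligands Gas6 (-1.10) and Pros1 (-0.53) fell; the call of Cd36 was lost without DAMPs replicate 2 or 3 and without DAMPs + Dex replicate 3.

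Complement, alternative activation and protease genes were mixed. Of 12 complement genes 4 rose and 4 fell: Cd55, which breaks up convertases on the cell surface, rose from 5.45, 7.20 and 7.36 to 56.7, 50.9 and 48.7 FPKM (2.80 ± 0.18), the recognition chains C1qa (0.75) and C1qb (0.86) rose, and the complement receptor chains Itgam (-2.12) and Itgax (-1.10) fell. The call of Itgax was lost without any one of 5 of the 6 libraries, the exception being DAMPs replicate 1, and without the 2 doubted libraries. Of 12 alternative activation markers 3 rose (Chil3, Klf4 and Cd163) and 4 fell (Egr2 -3.16, Clec7a -2.96, Tgm2 -2.55 and Pparg -1.28), and the mannose receptor Mrc1 did not pass. Of 12 matrix proteases and inhibitors 3 rose and 4 fell: Mmp12, the macrophage elastase, fell from 220.1, 272 and 204 to 28.5, 36.9 and 27.1 FPKM (-2.87 ± 0.27), Plau (urokinase) by 2.93 and Mmp14 by 2.04, and Mmp8 rose by 1.87. Of 12 growth and angiogenic factors 4 fell and none rose, led by Spp1 (osteopontin, -2.07) and Angptl4 (-1.53).

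Cell cycle genes were below their vehicle level with DAMPs already, and fewer of them fell further with Dex. Of 33 tested 10 fell, none rose and 23 did not pass (median -0.31), and 6 fell without the 2 doubted libraries. Ccnd1, cyclin D1 of early G1, stood at 13.6, 33.4 and 24.5 FPKM with DAMPs and at 2.86, 2.43 and 1.17 FPKM with DAMPs + Dex (-2.93 ± 0.33, adjusted p = 3.14e-05). The replication factors Uhrf1 (-1.63), Rrm2 (-1.03), Pcna (-0.96), Mcm5 (-0.91) and Mcm6 (-0.91) fell, and the mitotic genes Mki67, Plk1 and Ccnb1 did not pass. The summed level of the 33 genes was 859, 1236 and 912 FPKM with vehicle, 288, 327 and 298 with Dex alone, 359.9, 501 and 419.9 with DAMPs and 278, 291 and 257 with DAMPs + Dex. Every treated library lay below every vehicle library, and against vehicle 27 of 34 genes tested fell with DAMPs (median -1.20) and 32 of 34 with Dex (median -1.16), the latter among 3271 of 11187 genes called (29.2%; 12.1% higher, 17.1% lower).

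Fatty acid oxidation genes rose in part and synthesis genes fell in part. Of 20 fatty acid oxidation genes tested 10 rose and none fell (median 0.29; 7 rose without the 2 doubted libraries), among them the dehydrogenases Acadl (0.78) and Acadm (0.48), the carnitine transferase Cpt2 (0.34) and the lipid droplet coat Plin2, from 1458, 1308 and 979 to 2089, 2473 and 2185 FPKM (0.86 ± 0.15). Of 23 sterol and fatty acid synthesis genes 7 fell and none rose (median -0.16; 5 fell without the 2 doubted libraries), with the sterol regulator Srebf2 (-1.13) among them. Of 16 efflux and lipoprotein genes 5 rose and 5 fell (3 and 5 without the 2 doubted libraries). Apoe rose from 1639.7, 1021 and 1631 to 4353, 3513 and 9584 FPKM (1.91 ± 0.41, adjusted p = 0.0045) and Lpl, lipoprotein lipase, fell from 529, 811 and 770.0 to 77.8, 131 and 51.5 FPKM (-3.08 ± 0.30, adjusted p = 1.08e-05). DAMPs + Dex replicate 3 was the highest of its group for Apoe and the lowest for Lpl. The lysosomal acid lipase Lipa fell by 1.51 and the cholesterol sensor Nr1h3 (LXRa) by 1.18.

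Glycolysis genes were called in both directions, and few nuclear genes of the respiratory chain changed. Of 19 glycolysis genes 4 rose and 8 fell (median -0.16; 3 and 5 without the 2 doubted libraries): Pfkfb3, which makes the activator of phosphofructokinase, rose from 22.6, 24.2 and 32.4 to 152, 106 and 217 FPKM (2.50 ± 0.29) and Hk2 by 1.08, and Aldoc (-2.27), Hk3 (-1.37) and Ldha (-0.58) fell. Of 19 TCA cycle genes 4 rose and 2 fell (2 and 0 without the 2 doubted libraries), none by more than 0.66: Idh3g stood at 145, 131 and 141 FPKM with DAMPs and at 212, 216 and 232 FPKM with DAMPs + Dex (0.66 ± 0.08, adjusted p = 6.09e-05). Of 76 nuclear genes of the respiratory chain 4 rose and 2 fell, 7.89% against 25.6% of all genes, with a median of 0.02 whose sign turned when libraries were centred on one median (-0.03); 1 rose and none fell without the 2 doubted libraries. Leaving out single libraries gave 2 to 8 higher and 0 to 2 lower, with medians from -0.06 to 0.14. Of 12 genes encoded in mitochondrial DNA 8 rose (median 0.52), and 1 passed without the 2 doubted libraries, with a median of 0.46. Among the 8 that rose, mt-Nd6 stood at 545, 335 and 308 FPKM and at 661, 627 and 579 FPKM (0.70 ± 0.18). The call of mt-Nd6 was lost without DAMPs replicate 2 and without the 2 doubted libraries. Its gene overlaps mt-Nd5 on the other strand, at a mean of 384 FPKM with DAMPs and 703 FPKM with DAMPs + Dex.

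Haem oxygenase and a glutathione transferase led the rises of the antioxidant list. Of 22 NRF2 antioxidant targets 7 rose and 3 fell (5 and 2 without the 2 doubted libraries). Hmox1, haem oxygenase 1, stood at 539, 562 and 429.7 FPKM with DAMPs and at 3199.7, 3136 and 1742 FPKM with DAMPs + Dex (2.35 ± 0.22, adjusted p = 6.79e-06). Gsta3, a glutathione transferase, stood at 8.55, 6.45 and 6.39 FPKM and at 99.4, 70.3 and 51.5 FPKM (3.16 ± 0.25, adjusted p = 1.87e-06). Of 14 iron and haem genes 5 rose and 5 fell (1 and 4 without the 2 doubted libraries): the iron exporter Slc40a1 (0.84) rose, and the transferrin receptor Tfrc (-1.50), the importer Slc11a2 (-1.20) and the reductase Steap3 (-1.35) fell. Selenop, the selenium transport protein, was among the 5 largest gains in mean FPKM, from 2585, 2264 and 3308 to 8661, 6076 and 7939.8 FPKM (1.48 ± 0.17). Fth1, ferritin heavy chain, was among the 5 largest losses, from 24514, 17742 and 17779.8 to 12703, 14111 and 13382 FPKM (-0.56 ± 0.19, adjusted p = 0.0447), a call that was lost without any one of the 6 libraries.

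Clock genes were called in 13 of 16 members tested, 5 higher and 8 lower (5 and 7 without the 2 doubted libraries). The activators Arntl (BMAL1, 1.26) and Clock (0.78), the repressor Nfil3 (1.82) and Per1 rose. The output factor Dbp fell from 15.7, 11.0 and 12.6 to 1.60, 1.15 and 1.07 FPKM (-2.63 ± 0.24, adjusted p = 5.39e-06), and Bhlhe41 (-2.39), Tef (-1.43), Nr1d1 (-0.99) and Nr1d2 (-1.08) fell. Dbp overlaps the antisense gene Sphk2, with a mean of 27.5 FPKM with DAMPs and 21.4 FPKM with DAMPs + Dex. The libraries are single time points, so a shift of phase and a shift of level cannot be told apart.

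Markers of other cell types summed to far less than the macrophage markers and moved in part. Of 13 macrophage markers 1 rose and 6 fell, led by Fcgr1, Aif1 (-2.81) and Itgam. Neutrophil markers, 8 of 15 tested, 1 higher and 3 lower, summed to 149, 121 and 124 FPKM with DAMPs and 104, 162 and 158 FPKM with DAMPs + Dex, Mmp8 was the most abundant and Ly6g was at 0 in all 6 libraries. Of 8 B cell markers Ighm alone was tested and fell (-1.51), and the list summed to 45.3, 29.6 and 44.0 and 17.2, 11.6 and 11.9 FPKM. Of 10 T and NK cell markers Cd4 alone was tested and fell (-1.41), with Cd8a, Trac, Ncr1, Gzmb and Prf1 at 0. Of 8 dendritic cell markers Batf3 alone was tested and fell (-1.72), with Siglech and Cd209a at 0. Fibroblast markers summed to 2.87, 4.15 and 2.81 FPKM with DAMPs and 7.68, 6.19 and 3.92 FPKM with DAMPs + Dex, with Postn the most abundant (1.13, called) of 3 tested of 8. Endothelial markers had Kdr alone tested of 6 (-1.58, called), erythroid and megakaryocyte markers Itga2b of 10 (0.70, called, with Hba-a1, Hba-a2, Hbb-bs and Hbb-bt at 0), and adipocyte markers Fabp4 of 6 (2.06, called, with Cidec, Lep and Cfd at 0). Osteoclast markers had 4 of 7 tested, Acp5 higher (1.62) and 1 lower, and summed to 44.1, 52.9 and 46.7 and 100.1, 130.3 and 81.4 FPKM. No mast cell or basophil marker of 8 reached 1 FPKM on average. The part of other cell types in the Dex response was not tested.

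The question the AMPKa1-/- cells pose is whether Dex acts on DAMPs-treated macrophages differently in cells labelled AMPKa1-/-. In WT macrophages Dex on DAMPs called 2350 of 11240 genes (20.9%), 9.7% higher and 11.2% lower. Of 11111 genes tested in both genotypes 1925 were called in both, 67.7% of the AMPKa1-/- calls and 83.0% of the WT calls, and all 1925 had the same direction. The 2 sets of fold changes share no libraries, but the WT fit also held the AMPKa1-/- DAMPs and DAMPs + Dex libraries. Its spread and its filter on mean FPKM, and so its calls, rest in part on those libraries. Pearson's r of the log2 fold changes across genes was 0.917, a description over genes, which are not independent replicates. WT DAMPs replicate 3 stood apart at interferon-stimulated genes: Bst2 was at 734, 635 and 2407 FPKM and Zbp1 at 19.2, 10.7 and 63.0 FPKM in the 3 WT DAMPs libraries. The interferon-stimulated list fell in 29 of 31 members in WT (median -2.46), and the glucocorticoid-induced list rose in 15 of 22 and fell in 2 (median 2.18).

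**Figure D4:**
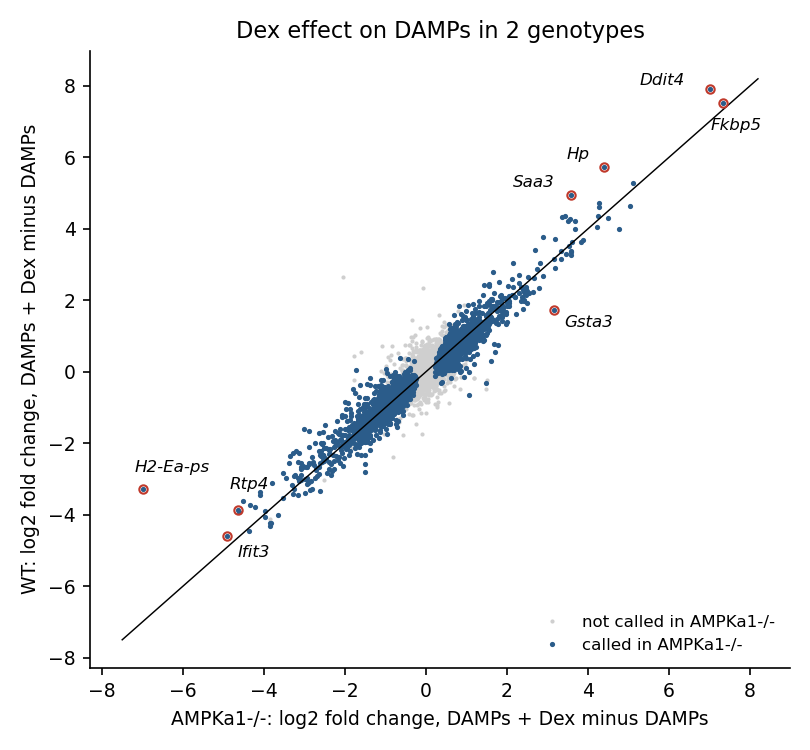
Log2 fold change by Dex on DAMPs of each gene tested in both genotypes, AMPKa1-/- on the horizontal and WT on the vertical axis, with genes called in AMPKa1-/- in blue and a line at equal change. Points follow the line (r 0.917 across genes); H2-Ea-ps, Gsta3, Saa3 and Hp lie off it, but no gene passed the test of the difference.

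The test of the difference itself, AMPKa1-/- minus WT, called by limma 0 of 11240 genes (0.0%), with 208 (1.85%) at an unadjusted p under 0.05, and 0 under every alternative run. Without WT DAMPs replicate 3, 387 genes were at an unadjusted p under 0.05 and 0 were called, and without WT DAMPs + Dex replicate 3 the numbers were 328 and 0. The 5 genes with the smallest p were Ddit4, Acss1, Cytip, Gadd45g and Lims2, each with an adjusted p of 0.99983. Ddit4 rose by 7.91 ± 0.14 in WT, a difference of -0.89 ± 0.20. Gadd45g, a stress-induced growth arrest gene, changed by -1.37 ± 0.20 in AMPKa1-/- and by -0.17 ± 0.20 in WT, a difference of -1.21 ± 0.28. For Gsta3 the AMPKa1-/- and WT values were 3.16 ± 0.25 and 1.73 ± 0.31 (difference 1.43 ± 0.43), and for Saa3 3.58 ± 0.42 and 4.93 ± 0.49 (difference -1.35 ± 0.69). A difference that misses the threshold does not show that the genotypes respond alike, and with 3 libraries a group the SE of a difference was of the size shown for these genes.

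Without DAMPs, Dex called 3271 genes against vehicle (29.2%), and the test of the difference, Dex effect with minus without DAMPs, called 112 of 11187 genes (1.0%), 51 higher (0.456%) and 61 lower (0.545%). When libraries were centred on one median the median difference over all genes moved from 0.12 to -0.03, with 72 genes called, 18 of them higher, and under quantile normalization 108 were called, 36 of them higher. Interferon-stimulated genes made up 19 of the 61 lower calls: Dex alone lowered 15 of 31 (median -0.70) and Dex on DAMPs 30. The list summed to 473, 514 and 354 FPKM with Dex alone and to 418, 491 and 382 FPKM with DAMPs + Dex. With these levels alike, its difference largely restates its rise by DAMPs, a median of 1.89 against vehicle. Zbp1 changed by -0.24 ± 0.20 with Dex alone against -2.62 ± 0.20 on DAMPs, a difference of -2.38 ± 0.29 (adjusted p = 0.0153). Bst2 was at 291, 250.4 and 158 FPKM with vehicle and 227, 243 and 155 FPKM with Dex alone, and its difference was -2.32 ± 0.30 (adjusted p = 0.0153). Ly6e, an interferon-induced membrane protein, changed in opposite directions, by 1.30 ± 0.21 with Dex alone and by -1.11 ± 0.21 on DAMPs (difference -2.41 ± 0.30, adjusted p = 0.0153). Dhx58 differed by -1.66 ± 0.24. Among the higher calls were 8 of 34 cell cycle genes. Kif18b, a mitotic kinesin, was at 3.15, 3.86 and 2.82 FPKM with vehicle and 0.572, 0.483 and 0.584 FPKM with Dex alone, against 0.747, 0.627 and 0.451 FPKM with DAMPs and 0.734, 0.647 and 0.635 FPKM with DAMPs + Dex. It entered this test through its level with vehicle, its level with DAMPs left little room for a fall, and it was not tested for Dex on DAMPs.

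The count of this difference test by limma rested on single libraries. It was 0 without DAMPs replicate 2, DAMPs replicate 3, Dex replicate 1 or Dex replicate 2, and 3 without DAMPs + Dex replicate 1. It was 31 without vehicle replicate 2, 34 without DAMPs + Dex replicate 2, 59 without DAMPs + Dex replicate 3, 64 without DAMPs replicate 1, 67 without vehicle replicate 3, 70 without Dex replicate 3 and 78 without vehicle replicate 1. The count of interferon-stimulated genes lower ranged from 0 to 19 over these 12, while their median difference stayed between -2.15 and -1.65, against -1.95 with all libraries.

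On LPS, the bacterial ligand of TLR4, Dex called 3968 of 11198 genes (35.4%), 18% higher and 17.4% lower, and the test of the difference, Dex effect on DAMPs minus on LPS, called 2508 (22.4%), 1302 higher (11.6%) and 1206 lower (10.8%). The largest differences named were of genes high on LPS and near 0 on DAMPs, which entered the test through the libraries with LPS. Il12b, a subunit of interleukin-12, was at 305, 406 and 435 FPKM with LPS and 0.678, 1.34 and 0.626 FPKM with LPS + Dex, against 0.0291, 0 and 0.0183 FPKM with DAMPs and 0, 0 and 0.0309 FPKM with DAMPs + Dex, a difference of 7.67 on the log2 scale. Il1a was at 1777, 1734 and 1681 FPKM with LPS and 3.41, 3.83 and 5.84 FPKM with LPS + Dex, and its difference was 8.01. Nos2, the inducible nitric oxide synthase, and the glutamate transporter Slc1a2 followed, with differences of 5.04 and 5.20. With DAMPs these 4 genes were at or under 0.917 FPKM in each library, so that their differences restate their falls on LPS. Of the 12 CC chemokines tested 9 differed upward, but Ccl17 and Ccl22, 2 of the 12, were too low for the test of Dex on DAMPs. Of 31 interferon-stimulated genes 23 differed upward (median 1.83), the list falling by a median of 4.49 with Dex on LPS.

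**Figure D5:**
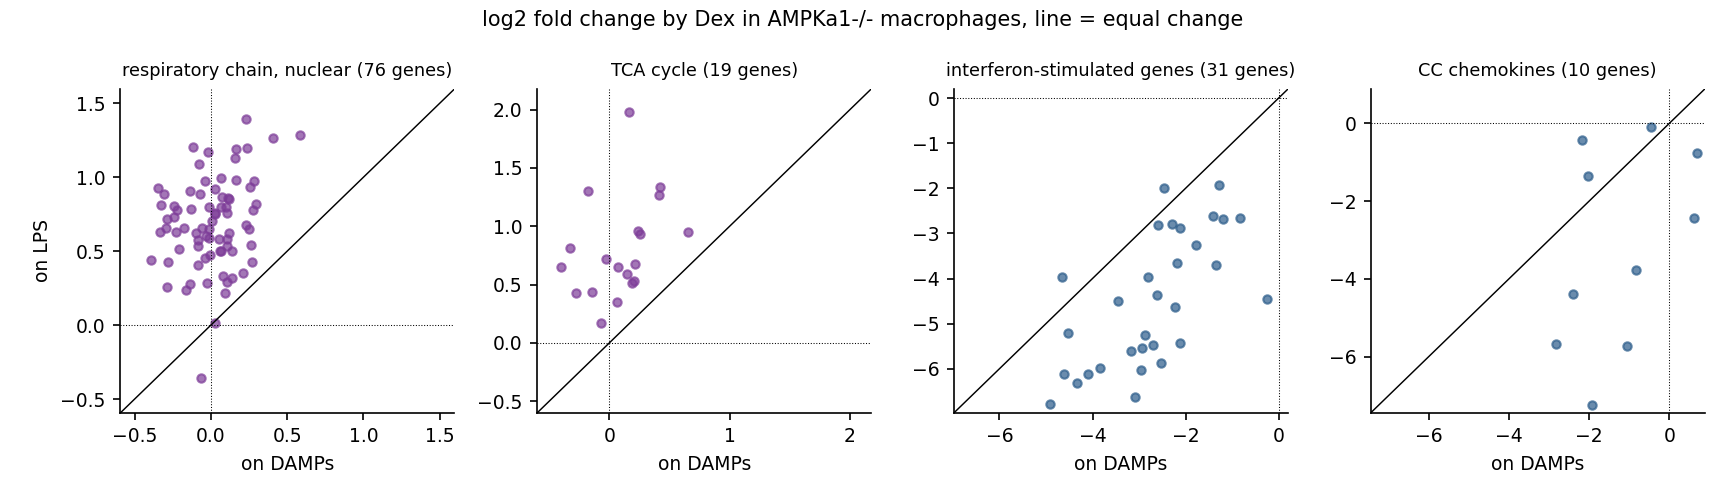
Log2 fold change by Dex in AMPKa1-/- macrophages on DAMPs (horizontal) and on LPS (vertical) for the tested members of 4 lists, with a line at equal change and dotted lines at 0. Nuclear respiratory chain and TCA cycle genes lie above the line with few exceptions, near 0 on DAMPs and above 0 on LPS, and interferon-stimulated genes mostly below it, with larger falls on LPS.

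Mitochondrial genes differed the other way. Dex on LPS raised 66 of 76 nuclear respiratory chain genes (median 0.67) and 17 of 19 TCA cycle genes (median 0.68), against 4 of 76 and 4 of 19 on DAMPs, and the difference was called lower on DAMPs for 47 of 76 and 11 of 19, none higher. Leaving out single libraries gave 34 to 48 and 10 to 11. The median of the respiratory chain genes relative to vehicle was 0.35, -0.01 and -0.01 in the DAMPs libraries and -0.04, 0.13 and 0.18 with DAMPs + Dex, and 0.33, 0.20 and 0.01 in the LPS libraries and 0.93, 0.86 and 1.06 with LPS + Dex. The LPS + Dex libraries stood apart from the other 3 groups, which overlapped. Sult1a1, a sulfotransferase, also rose less on DAMPs, from 30.4, 27.1 and 28.2 to 325, 321 and 312 FPKM, than on LPS, from 0.352, 0.203 and 0.303 to 154, 148 and 136 FPKM, on the log2 scale (difference -3.40 ± 0.13), although it ended higher with DAMPs + Dex; its locus overlaps the antisense gene Sgf29.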

How the data were processed

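RNA was sequenced from bone marrow-derived macrophages, and for each library the authors deposited FPKM values per gene. The submitters' processing notes name Bowtie2 2.2.3, TopHat2 2.0.12, HTSeq 0.6.1 and DESeq2 and the builds GRCm38 and mm10, without their roles. For gene lengths, strand use and annotation release the sources used here give nothing. Only 56.3 to 62.5% of the low values (below 10 fragments) were whole numbers of fragments within 0.001, so FPKM and not fragment counts were tested.

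Differences were tested with limma 3.58.1 (R 4.3.3) on log2(FPKM + 1), 2-sided, with a trended variance prior and Benjamini-Hochberg adjustment at 0.05 over all genes with a mean of at least 1 FPKM in the libraries compared. For Dex alone, Dex on LPS and Dex on DAMPs in WT that mean was taken over all libraries of the fit. The fit for Dex on DAMPs, Dex alone and DAMPs against vehicle held the 12 AMPKa1-/- libraries of vehicle, Dex, DAMPs and DAMPs + Dex. Dex on DAMPs in WT was fitted with the DAMPs and DAMPs + Dex libraries of both genotypes. Dex on LPS was fitted with the AMPKa1-/- libraries of LPS, LPS + Dex, DAMPs and DAMPs + Dex. Difference tests used interaction contrasts over the libraries they compare. Scripts were tested on simulated data. Genes named were the AMPK genes and Nr3c1, the 12 largest log2 rises and falls among called genes without overlap, the 5 largest gains and losses in mean FPKM, up to 4 called members per list, the 5 smallest p of each difference test and the most abundant gene per cell type list; others were added as list members. The gene lists and members were chosen with earlier results of these data known. Promoters are RefSeq's of GRCm38.p6, overlaps of genes come from GENCODE M21, and no coordinates of the deposited values were needed. Alternatives were other pseudocounts, filters, scalings, sample sets, a replicate block and single libraries left out. Leaving out DAMPs + Dex replicate 1 and DAMPs replicate 3 together was chosen after seeing the data. FPKM gives no interval for counting error. Results for some genes are not reported here.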

Additional observations from a re-analysis of the deposited data

Results flagged for a closer look

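The log2 effect of Dex in AMPKa1-/- macrophages was tested for its difference between stimuli. With against without DAMPs it differed by -2.38 for Zbp1, -2.41 for Ly6e, -2.32 for Bst2, -1.66 for Dhx58 and 1.52 for Kif18b. Of 19 alternative settings, that of the report not included, Zbp1 passed in 15, Ly6e in 14, Bst2 in 13 and Dhx58 in 13, and Kif18b passed in 13 of the 18 in which it was tested. Zbp1, Ly6e, Bst2 and Dhx58 had means of 4.16, 478, 208 and 11.8 FPKM with Dex alone. With DAMPs + Dex the means were 3.49, 591, 198 and 11.1 FPKM, so that their differences largely restate their rises by DAMPs. Kif18b was at a mean of 3.27 FPKM with vehicle and at 0.546, 0.608 and 0.672 FPKM with Dex, DAMPs and DAMPs + Dex, so that a fall by Dex on DAMPs was limited by its level. On DAMPs against on LPS it differed by 7.67 for Il12b, 8.01 for Il1a, 5.20 for Slc1a2, 5.04 for Nos2 and -3.40 for Sult1a1. Il12b, Il1a, Slc1a2 and Nos2 entered this test through the libraries with LPS and were at or under 0.917 FPKM in each DAMPs library, so that their differences restate their falls on LPS.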

How the results depend on the processing

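Dex on DAMPs in AMPKa1-/- macrophages called 2101 to 2738 genes without any 1 library, against 2859, and 2035 to 3048 over all alternatives. Of 2557 values of 172 named genes under 15 settings, 2457 kept direction and side of the threshold, 100 (29 genes) were no longer past it and 0 reversed. Most of these genes were named for large changes that passed, 163 of the 172 being called, so these numbers do not stand for all calls. Of 455 list medians 72 moved by more than the spread over libraries. The difference with against without DAMPs (112 genes) was called in 42 genes with a pseudocount of 0.1, 8 without a filter, 68 at a mean of at least 5 FPKM, 72 with centred libraries, 41 with all 35 libraries in the fit and 0 to 78 without 1 library. DAMPs against vehicle (505) gave 339 with only the 6 libraries compared and 305 to 435 without 1 library, lowest without DAMPs replicate 3. The cause of these changes was not tested. A fit with the replicate number as a block called 2797 genes for Dex on DAMPs, 147 for the difference by DAMPs, 2488 for that against LPS and 559 for DAMPs against vehicle. Deviations of same-numbered libraries correlated across genes at 0.31, 0.21 and 0.41 for vehicle and Dex but at -0.49, 0.13 and -0.17 for DAMPs and DAMPs + Dex, and not every library correlated best with its own number (DAMPs replicate 3 with DAMPs + Dex replicate 1 at 0.60 and DAMPs replicate 1 with DAMPs + Dex replicate 2 at 0.31), so the numbers were not taken to pair the libraries compared. Depth limits weakly expressed genes: below 1 FPKM no test was made in the fits of the report.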

Other observations

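Further lists of AMPKa1-/- macrophages with DAMPs + Dex against DAMPs held the following, where 13.0% of all genes tested rose and 12.6% fell. Of 12 prostaglandin genes tested of 17, 2 rose and 5 fell, also without the 2 doubted libraries: the synthases Ptgs1 (-1.47) and Hpgds (-1.81), the leukotriene enzyme Alox5 (-1.67), the phospholipase Pla2g4a (-1.12) and the receptor Ptger4 (-0.81) fell, and the receptor Ptger2 (1.42) and thromboxane synthase Tbxas1 (0.71) rose. Of 6 nitric oxide and arginine genes tested of 9, 3 rose and 2 fell (2 and 1 without these libraries): Ass1, which makes arginine from citrulline, fell from 298, 211 and 228 FPKM with DAMPs to 60.6, 77.2 and 45.9 FPKM with DAMPs + Dex, Gch1 (-0.45), which makes a cofactor of nitric oxide synthase, fell too, and catalase Cat (0.80), the arginine carrier Slc7a2 (0.76) and ornithine decarboxylase Odc1 (0.40) rose. The call of Slc7a2 was lost without DAMPs replicate 1 and without DAMPs + Dex replicate 3, and that of Gch1 without the 2 doubted libraries. Of 16 HIF1 targets tested of 20, 4 rose and 3 fell (4 and 2): the mitophagy receptor Bnip3 (0.93) rose with Pfkfb3, Hk2 and Hmox1, and Ldha, the lactate exporter Slc16a3 (-0.69) and the stress gene Ndrg1 (-0.63) fell. Of 32 lysosome genes 4 rose and 9 fell (3 and 8), with a median of -0.13, the rises being at the share of all genes: Lipa (-1.51), the cathepsin Ctss (-0.78) and the cholesterol carrier Npc2 (-0.68) were among the falls.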
